A study of Homo sapiens with 6 samples.

Results

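The interferon regulatory factor (IRF) genes examined were IRF1, IRF2, IRF3, IRF4, IRF5, IRF7, IRF8 and IRF9, which are 8 of the 24135 annotated genes whose transcription start sites (TSSs) were set against ChIP-seq regions. They were chosen by name, with earlier results of these data known. HSC3 cells, an established line of oral squamous cell carcinoma (OSCC), had been transfected with a control siRNA (siCONT) or with an siRNA against the long noncoding RNA DLEU1 (siDLEU1) and collected after 72 h. Histone H3 acetylated at lysine 27 (H3K27ac) and histone H3 trimethylated at lysine 4 (H3K4me3) were profiled in both, with 1 library for each siRNA and mark. Both groups are of the same line, and the siRNA is the only difference that the labels give. Differences between cultures, precipitations or sequencing runs cannot be told apart from it. No other line, time or siRNA is in these libraries. With 1 library a group no value has a replicate check, no test was possible and no p-value is given.

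IRFs are transcription factors that share a DNA-binding domain and recognise a repeated GAAA core known as the interferon-stimulated response element (ISRE). IRF3 and IRF7, once phosphorylated downstream of sensors of foreign nucleic acid, switch on the interferon genes, and IRF5 acts downstream of Toll-like receptors. Interferon then signals back through the complex ISGF3, in which IRF9 binds the ISRE. IRF1, itself induced by interferon, activates antigen presentation genes, and IRF2 competes with it at the same sites. IRF4 and IRF8 work mainly in lymphoid and myeloid cells. H3K4me3 marks the starts of genes that are open for transcription, and H3K27ac marks active starts and enhancers.

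The H3K27ac lists held 19705 regions in siCONT and 17672 in siDLEU1 cells, and the H3K4me3 lists held 58582 and 56943. Levels are given on 3 scales. The percentile rank of a gene is that of the fold enrichment of its strongest region within 1 kb of any TSS, from 100 for the top region of the list down to 0 where no region was called. The width is that of the same region. The height is the number of fragments over the summit, recovered from the fold and p of the region, per 1000000 reads (M) of the library as estimated from the list. Height is read at a single position, so it is not summed over the length of a gene. The strongest region is sought over all annotated TSSs, from 5 at IRF4 to 56 at IRF9. Genes with more starts thus have more places to hold it. The estimated libraries had 21.5 and 29.4 M reads for H3K27ac and 28.4 and 22.3 M reads for H3K4me3, siCONT first. Of 9 squamous epithelial marker genes, 9 had a region of both marks in both conditions, and of 9 lymphoid and myeloid markers only CD14 and CIITA did. In single lists, 53.3% to 56.7% of all genes had a region.

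The 250 bases before the start of 4 of the genes are shown because their starts bore different marks: IRF1 and IRF9 kept both marks in siDLEU1 cells, IRF5 had both in siCONT cells alone, and IRF4 had neither. RefSeq promoters were held for 5 of the 8 genes (IRF1, IRF4, IRF5, IRF8 and IRF9). The sequences come from the RefSeq table of GRCh38.p14 and each was found once in GRCh37, the build of the regions, next to the start of the canonical GENCODE transcript. In GRCh37 they lie at chr5:131826466-131826715 on the minus strand for IRF1, chr6:391502-391751 on the plus strand for IRF4, chr7:128577731-128577980 on the plus strand for IRF5 and chr14:24630224-24630473 on the plus strand for IRF9. Capitals mark matches on either strand to the GC box (GGGCGG), to the gamma-activated site GAS (TTCNNNGAA, an element of interferon-responsive promoters) and to the TATA box (TATAAA).
IRF1: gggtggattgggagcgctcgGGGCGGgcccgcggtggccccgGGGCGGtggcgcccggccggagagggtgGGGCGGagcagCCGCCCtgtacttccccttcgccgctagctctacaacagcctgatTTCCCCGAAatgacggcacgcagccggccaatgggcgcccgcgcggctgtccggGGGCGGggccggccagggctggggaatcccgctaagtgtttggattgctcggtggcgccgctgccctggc
IRF4: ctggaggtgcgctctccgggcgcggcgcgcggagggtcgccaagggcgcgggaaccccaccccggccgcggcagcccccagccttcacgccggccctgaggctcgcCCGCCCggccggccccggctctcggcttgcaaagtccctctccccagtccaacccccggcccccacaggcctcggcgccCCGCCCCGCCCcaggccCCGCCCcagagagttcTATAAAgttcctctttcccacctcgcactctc
IRF5: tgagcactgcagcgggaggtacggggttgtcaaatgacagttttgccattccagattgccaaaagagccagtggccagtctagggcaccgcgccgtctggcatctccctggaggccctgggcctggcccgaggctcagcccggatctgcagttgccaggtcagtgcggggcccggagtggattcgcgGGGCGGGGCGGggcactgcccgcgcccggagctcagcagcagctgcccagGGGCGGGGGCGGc
IRF9: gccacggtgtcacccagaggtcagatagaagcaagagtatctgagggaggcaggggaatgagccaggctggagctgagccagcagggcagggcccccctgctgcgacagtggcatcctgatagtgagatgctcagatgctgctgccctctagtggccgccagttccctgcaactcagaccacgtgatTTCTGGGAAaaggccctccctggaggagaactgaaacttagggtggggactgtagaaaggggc

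The IRF1 promoter held 5 GC boxes and a GAS match, TTCCCCGAA, from 124 to 116 bases before the start. IRF9 held a GAS match, TTCTGGGAA, from 63 to 55 bases before the start and no GC box. The IRF5 promoter held 4 GC boxes, of which the first 2 overlapped by 1 base. IRF4 held 4 GC boxes, of which 2 overlapped by 1 base, and the only TATA box, from 32 to 27 bases before the start. None of the 4 windows held the ISRE letters, which were searched as GAAA, 2 bases of any kind and GAAA. Among 35114 RefSeq promoters of the same length, 3.02% held the ISRE letters, 6.57% the GAS, 42.6% the GC box and 10.7% the TATA box. The GC content was 74.4% at IRF1, 76% at IRF4, 69.6% at IRF5 and 59.6% at IRF9, against a median of 58% over all promoters. The number of CG dinucleotides was 29, 28, 18 and 4 in the same order, against a median of 11. IRF4, with no region of either mark, thus had base composition close to that of IRF1, which ranked near the top of its lists.

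In siCONT cells, 6 of the 8 IRF genes carried an H3K27ac region at a TSS, beside 56.3% of all genes, and the same 6 carried H3K4me3, beside 56.7%. These were IRF1, IRF2, IRF3, IRF5, IRF7 and IRF9. In siDLEU1 cells, 5 of 8 carried H3K27ac, beside 53.3% of all genes, and 5 of 8 carried H3K4me3, beside 56.4%. IRF5 was the gene lost from both lists, and IRF4 and IRF8 had no region in any list. By H3K27ac percentile in siCONT cells the order was IRF1 (88.4), IRF3 (86.3), IRF2 (85.6), IRF7 (67.9), IRF5 (51.0) and IRF9 (43.6). By H3K4me3 it was IRF1 (98.2), IRF2 (95.6), IRF3 (92.4), IRF7 (92.1), IRF9 (90.8) and IRF5 (34.6). The first 3 genes of the H3K27ac order and the first 5 of the H3K4me3 order lie within a few points of each other, and without replicates their order among themselves cannot be judged.

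**Figure D1:**
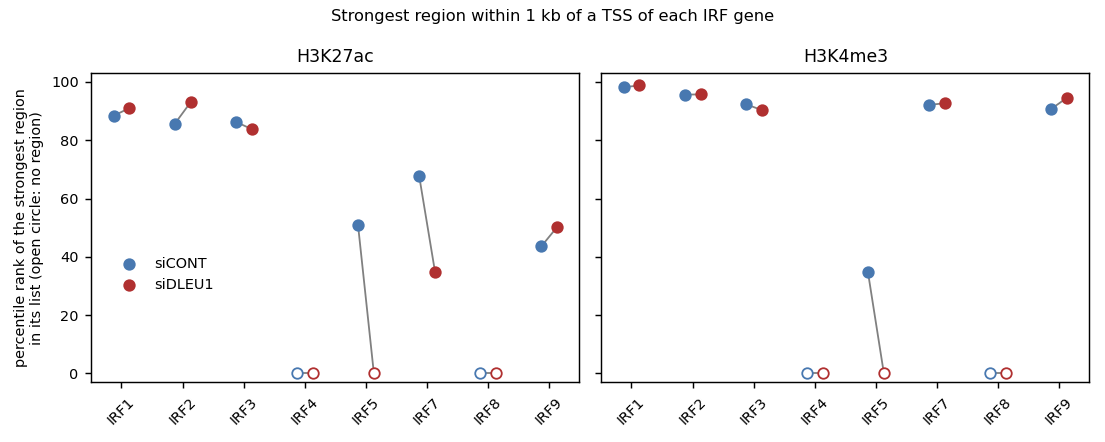
Percentile rank of fold enrichment of the strongest region within 1 kb of a TSS, for each IRF gene in siCONT (blue) and siDLEU1 (red) cells, with H3K27ac on the left and H3K4me3 on the right. Open circles at 0 are genes with no region; IRF5 goes from 51.0 and 34.6 to no region, IRF7 from 67.9 to 34.9 in H3K27ac, and the other marked genes stay within 10 points.

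A change of at least 10 percentile points was called a fall or a rise. In H3K27ac, 2 of the 6 IRF genes with a region fell (IRF5 and IRF7), beside 36.8% of all genes, and 0 of 6 rose, beside 16.8%. In H3K4me3, 1 of 6 fell (IRF5), beside 18.6%, and 0 of 6 rose, beside 20.2%. A region in siCONT cells alone was found at 1 of 6 in each mark, beside 5.6% of genes for H3K27ac and 3.15% for H3K4me3. The median change of the 6 was 0.07 points in H3K27ac, against -4.55 over all genes, and 0.34 in H3K4me3, against 0.51. The H3K27ac values depended on the scale of the rank. With regions ranked by fragments, which leaves the control library out, 4 of 6 fell (IRF1, IRF5, IRF7 and IRF9), beside 31% of all genes, and the median was -14.1 points against -4.45. In H3K4me3, 1 of 6 fell on that scale, beside 13.2%, and the median was -2.51 against 0.52. No direction is therefore given for the family as a whole.

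**Figure D2:**
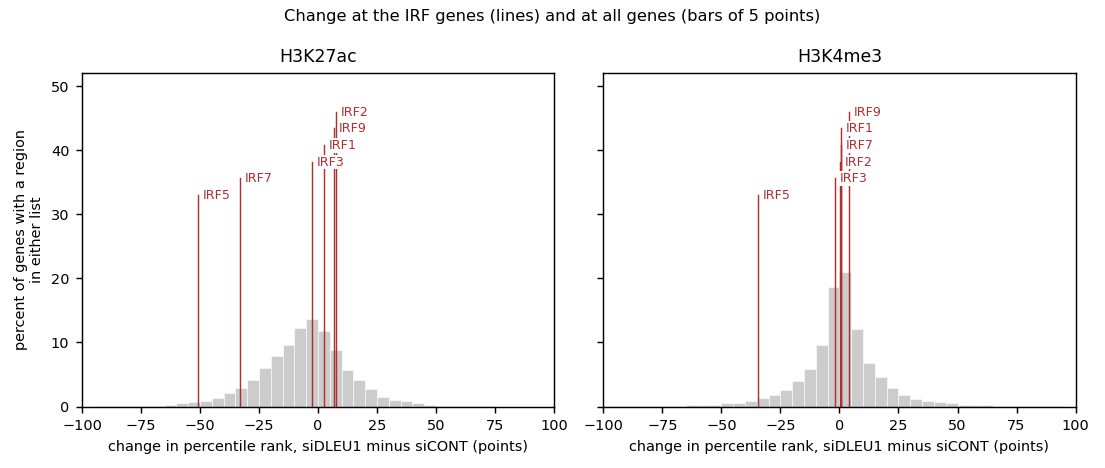
Change in percentile rank (siDLEU1 minus siCONT, horizontal axis, in points) of all genes with a region in either list (grey bars of 5 points, as a percentage of those genes) and of the 6 marked IRF genes (red lines, whose height has no meaning). IRF5 lies in the lower tail of both marks and IRF7 in that of H3K27ac, while the others lie in the body of the distribution. Ranks are those of fold enrichment; by fragments, IRF1 and IRF9 also fell in H3K27ac.

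IRF5 was the single IRF gene whose marks were called in siCONT cells only. It is annotated on the plus strand of chromosome 7 with its canonical start at 128577981. The H3K27ac region in siCONT cells ran from 128577858 to 128578824, over exon 1 and into intron 1, with its summit 299 bases downstream of the start. Its height was 2.98 per M reads (64 fragments, exact Poisson 95% interval 2.29 to 3.81) and its rank 51.0. The H3K4me3 region was weaker, from 128578148 to 128578638 within intron 1, with a height of 1.05 per M reads (30 fragments, 0.712 to 1.51) and rank 34.6. In siDLEU1 cells no region of either mark lay in the gene, and the nearest to its start were 74240 bp away for H3K27ac and 22852 bp for H3K4me3. A fall as deep or deeper was seen at 1.75% of genes in H3K27ac and at 3.11% in H3K4me3. No other gene had a region of IRF5 within 1 kb of its TSSs.

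How far the marks at IRF5 could have fallen is bounded by what the siDLEU1 lists could hold. The weakest H3K27ac region at the genome-wide background in siDLEU1 cells had 19 fragments, or 0.646 per M reads, which is 0.217 of the siCONT height at IRF5. Had the IRF5 height changed by the median ratio of all genes, 50.7 fragments would have stood at the summit. For H3K4me3 the weakest such region had 14 fragments, or 0.627 per M reads, which is 0.595 of the siCONT height, and the median ratio would have left 27.4 fragments. Where the background at IRF5 was the genome-wide one, the absence of a region therefore needs a deeper fall in H3K27ac than in H3K4me3, and an H3K4me3 fall of less than 2-fold could have sufficed.

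IRF7, the amplifier of type I interferon production, kept a region of both marks at its start, at position 615950 on the minus strand of chromosome 11. Its H3K27ac rank was 67.9 in siCONT and 34.9 in siDLEU1 cells, a fall of 33.0 points that 7.21% of genes matched or exceeded. The region narrowed from 933 bp, over exons 1 to 3, to 588 bp, over exons 1 and 2, while its summit stayed in place, 75 and 78 bases downstream of the start. The height was 4.19 per M reads in siCONT and 2.18 in siDLEU1 cells. Their ratio of 0.519 (95% interval 0.371 to 0.724, counting error only) included the median ratio over all genes, 0.579, and 23.2% of genes had a ratio as low. The local background at the summit was 0.561 fragments of the control library in siCONT and 1 in siDLEU1 cells, and ranked by fragments alone the fall was 14.5 points.

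H3K4me3 at the IRF7 start was narrower but not lower in siDLEU1 cells. The rank was 92.1 and 92.7, and the height 5.24 and 6.32 per M reads in siCONT and siDLEU1 cells, read 490 bases downstream of the start in siCONT and 74 in siDLEU1 cells. The width went from 1675 to 788 bp, a ratio of 0.470. A second H3K4me3 region in siCONT cells, from 613820 to 614891 over exons 4 to 8 with rank 38.6, was not overlapped by any region in siDLEU1 cells.

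IRF3, the constitutively present partner of IRF7, changed by less than 10 points in both marks, and its H3K4me3 region was narrower. Its start lies at 50169114 on the minus strand of chromosome 19, and the regions there also lie within 1 kb of a TSS of BCL2L12, so they cannot be assigned to 1 of these genes. H3K27ac ranked 86.3 in siCONT and 83.8 in siDLEU1 cells, with heights of 5.45 and 3.06 per M reads, a ratio of 0.562 (0.422 to 0.746) beside the 0.579 of all genes. H3K4me3 ranked 92.4 and 90.4, with heights of 4.04 and 4.17 per M reads. The H3K4me3 region was called as 2142 bp in siCONT cells, reaching 2124 bases into the gene. In siDLEU1 cells it was 1276 bp, and a separate region of 340 bp lay 1409 bases downstream of the start.

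**Figure D3:**
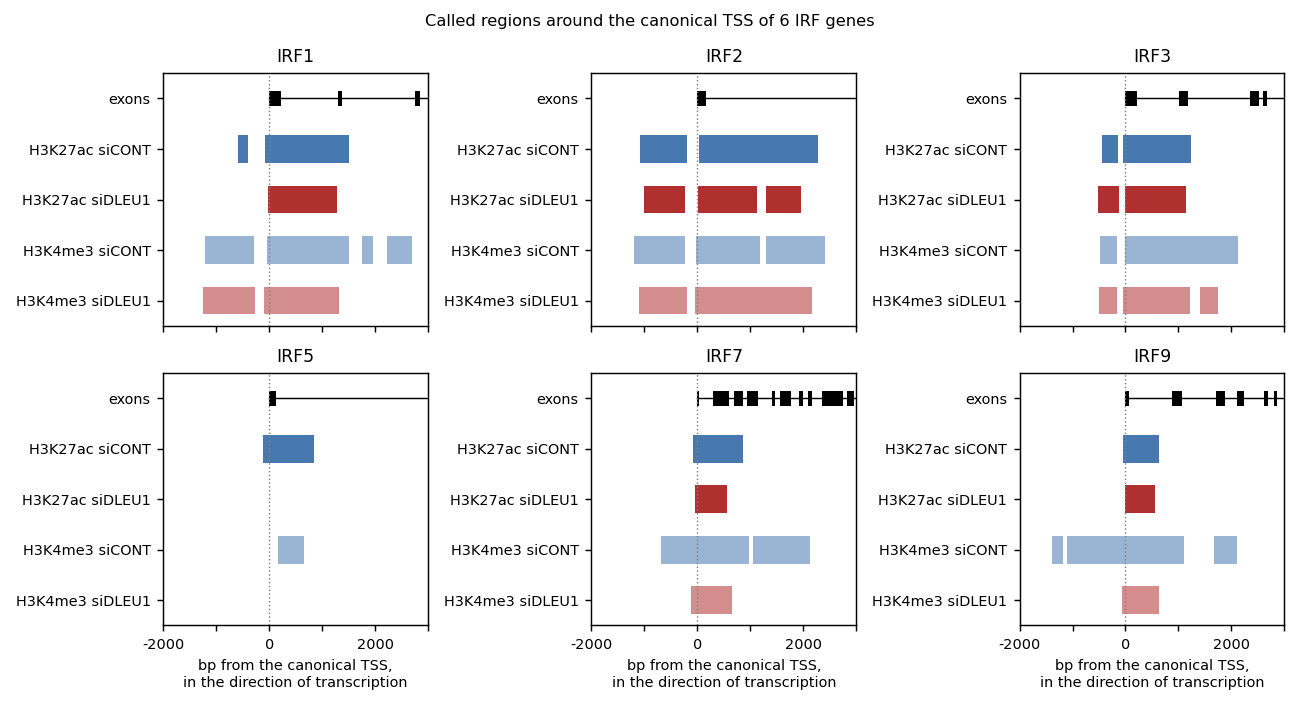
Called regions from 2000 bp before to 3000 bp after the canonical TSS (dotted line) of the 6 marked IRF genes, with the exons of the canonical transcript in black, H3K27ac in full and H3K4me3 in pale colour, siCONT in blue and siDLEU1 in red. At IRF5 the siDLEU1 tracks are empty, and at IRF7 and IRF9 the H3K4me3 regions narrow from 1675 to 788 bp and from 2208 to 714 bp.

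IRF9, the DNA-binding subunit of ISGF3, had the lowest height ratio in each mark of the 5 IRF genes with a region in both conditions. Its canonical start is at 24630474 on the plus strand of chromosome 14. The H3K27ac height was 6.98 per M reads (150 fragments) in siCONT and 2.72 (80 fragments) in siDLEU1 cells. The ratio of 0.390 (0.293 to 0.514) was matched or undercut at 1.93% of all genes. Relative to the all-gene median the ratio was 0.673 (0.506 to 0.888). H3K4me3 height was 10.1 per M reads (286 fragments) in siCONT, the highest of the family, and 6.95 (155 fragments) in siDLEU1 cells. That ratio was 0.691 (0.564 to 0.843), as low as that of 3.95% of genes, where the median of all genes was 1.16.

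The rank of IRF9 by fold went the other way, from 43.6 to 50.3 in H3K27ac and from 90.8 to 94.6 in H3K4me3. The local background by which the fold is divided was 3 fragments of the control library in both siCONT lists and 1 in both siDLEU1 lists. With regions ranked by fragments, H3K27ac at IRF9 went from 91.5 to 62.1 and H3K4me3 from 99.95 to 97.1. The rank by fold at this gene therefore turns on a difference of 2 control fragments, and no direction is given for it. Width went with the height: the H3K4me3 region was 2208 bp in siCONT cells, over exons 1 and 2 and within reach of a TSS of the neighbouring RNF31, and 714 bp over exon 1 in siDLEU1 cells, a ratio of 0.323. A further H3K4me3 region over exon 3 (445 bp, rank 11.6) had no counterpart in siDLEU1 cells.

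IRF1 ranked at 98.2 and 98.8 in H3K4me3 by fold; by height IRF9 stood above it in siCONT cells. Its canonical start is at 131826465 on the minus strand of chromosome 5, and 28 TSSs are annotated, some of them over 5 kb upstream. The strongest H3K27ac region lay over the canonical start, from 131824958 to 131826540 in siCONT cells (over exons 1 and 2) and from 131825190 to 131826483 in siDLEU1 cells (over exon 1), with the summit 634 bases downstream in both. Its height was 7.54 per M reads in siCONT and 3.47 in siDLEU1 cells, a ratio of 0.460 (0.355 to 0.593). Relative to the median ratio of all genes this was 0.794 (0.614 to 1.02), an interval that reaches 1. Its rank was 88.4 and 91.0 by fold and 94.7 and 81.1 by fragments, with a local background of 1 and 0.44 control fragments, so its direction depends on the scale.

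The strongest H3K4me3 region of IRF1 lay at the upstream starts, with its summit at -5363 from the canonical start in siCONT and -5317 in siDLEU1 cells, and ranked 98.2 and 98.8. It was 1493 bp wide in siCONT and 2836 bp in siDLEU1 cells, where it spanned 2 of the siCONT regions. Over the canonical start H3K4me3 ranked 93.8 and 97.9 by fold, and over the bases just upstream of it 94.8 and 75.1. By fragments these ranks were 95.8 and 96.6, and 90.7 and 79.9. The local background was 1 and 0.558 control fragments over the start, and 0.532 and 1 just upstream. In siCONT cells 4 weak H3K4me3 regions at annotated TSSs within the gene, ranked from 4.82 to 36.2, had no counterpart in siDLEU1 cells, and in siDLEU1 cells 2 weak regions there, ranked 4.49 and 6.33, had none in siCONT cells. The summed width of the H3K4me3 regions at IRF1 starts was 8547 bp in siCONT and 5826 bp in siDLEU1 cells. An H3K27ac region at the upstream starts, from -6609 to -5714 from the canonical one, ranked 53.2 in siCONT, and in siDLEU1 cells the 2 regions that overlapped it ranked 70.4 and 24.7. The H3K27ac region next to it, from -5494 to -5134, ranked 32.1 in siCONT and its counterpart 12.6 in siDLEU1 cells.

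IRF2, the antagonist of IRF1, starts at 185395704 on the minus strand of chromosome 4, and regions at its start are shared with the divergent noncoding gene IRF2-DT. H3K27ac ranked 85.6 in siCONT and 93.0 in siDLEU1 cells, with heights of 5.59 and 3.84 per M reads. The ratio of 0.688 (0.527 to 0.897) was the highest in the family, as high as that of 14.6% of genes, and relative to the all-gene median it was 1.19 (0.910 to 1.55). H3K4me3 ranked 95.6 and 95.8, but the strongest region was downstream of the start in siCONT and upstream in siDLEU1 cells, so these values are of different regions. Inside the gene, an H3K4me3 region of 4348 bp with its summit 25679 bases downstream, beside an annotated internal TSS, ranked 93.7 in siCONT cells. In siDLEU1 cells the region there was 2579 bp and ranked 43.3. The heights were 4.25 and 2.87 per M reads, with local backgrounds of 0.532 and 2 control fragments. A weak H3K27ac region at the same place (319 bp, rank 11.3) was present in siCONT cells only.

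IRF4 and IRF8 were unmarked in both conditions. The IRF4 start at 391752 on chromosome 6 was 98361 bp from the nearest H3K27ac region in siCONT and 98556 bp in siDLEU1 cells. For H3K4me3 the distances were 98211 and 98243 bp. At IRF8, whose start is at 85932768 on chromosome 16, the nearest regions were 98399 to 98634 bp away over the 4 lists. No region lay in the body of either gene. At the genome-wide background, regions were called from 13 fragments upward in the siCONT and 19 in the siDLEU1 H3K27ac list, and from 17 and 14 in the H3K4me3 lists, so marks below 0.598 to 0.646 fragments per M reads were not detectable.

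**Figure D4:**
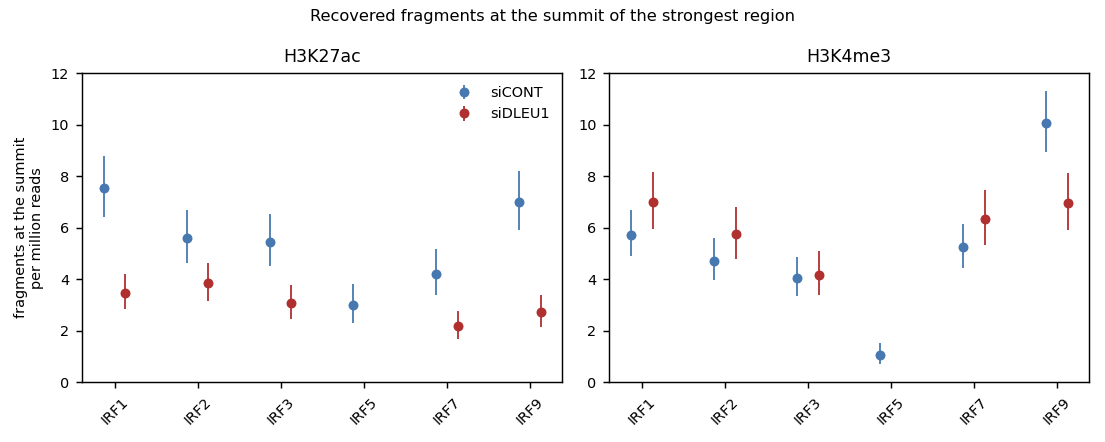
Height of the strongest region of each marked IRF gene, in fragments over the summit per M reads, in siCONT (blue) and siDLEU1 (red) cells; bars are exact Poisson 95% intervals and cover counting error only. H3K27ac heights (left) were lower in siDLEU1 cells at all 5 genes with 2 values, where the median ratio over all genes was 0.579. H3K4me3 (right) was lower at IRF9 alone, from 10.1 to 6.95. The H3K4me3 values of IRF2 are of different regions in siCONT and siDLEU1 cells.

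Heights were set against the shift of all genes, whose median ratio was 0.579 in H3K27ac (-0.79 on the log2 scale) and 1.16 in H3K4me3 (0.22). All 5 IRF genes with H3K27ac in both conditions had ratios below 1, from 0.390 to 0.688. Over all genes the 5th and 95th percentiles of this ratio were 0.439 and 0.789, so ratios below 1 were general and not particular to IRF genes. At least 2-fold lower were 2 of 5, IRF1 and IRF9, beside 16.2% of all genes. Relative to the median, IRF9 was the gene whose counting interval left 1 out, in both marks. In H3K4me3 the other 4 genes had ratios from 1.03 to 1.22, each with an interval that held the 1.16 of all genes. At IRF2 this ratio is of different regions, so it gives no change at a single place. The region upstream of the IRF2 start had heights of 3.59 per M reads in siCONT and 5.74 in siDLEU1 cells. The region inside the gene had 4.25 and 2.87.

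Width was called at 1.5-fold. In H3K27ac, 1 of 5 IRF genes was narrower in siDLEU1 cells (IRF7), beside 33.3% of all genes. In H3K4me3, 3 of 5 were narrower (IRF3, IRF7 and IRF9), beside 14.8%, and 1 of 5 was wider (IRF1), beside 12.7%. The call at IRF1 turned round when the widths of all its regions were summed, with a ratio of 0.682 in place of 1.90. The median H3K4me3 width ratio was 0.596 over the 5 genes and 0.940 over all genes, and for H3K27ac it was 0.817 and 0.794. By summed width, all 5 genes were narrower in H3K4me3, with ratios from 0.269 at IRF9 to 0.796 at IRF3, a median of 0.682. Over all genes 68.6% were narrower on this measure, with a median of 0.910.

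Taken region by region, 9 of the 12 siCONT H3K27ac regions at IRF starts were overlapped by at least 1 bp in siDLEU1 cells (75%, Wilson 95% interval 46.8 to 91.1), against 84.7% of regions at all genes. The other 3 were the IRF5 region, the internal IRF2 region and a region of rank 8.60 upstream of IRF1. Of 21 siCONT H3K4me3 regions, 12 were overlapped (57.1%, 36.5 to 75.5), against 87.4%. Of the other 9, 6 were at IRF1 and 1 each at IRF5, IRF7 and IRF9, and their ranks ran from 4.82 to 40.8. In the opposite direction, 11 of 11 siDLEU1 H3K27ac regions had an siCONT counterpart, against 99.1% of regions at all genes. For H3K4me3 it was 11 of 13 (84.6%, 57.8 to 95.7), against 91.7%. Regions of 1 gene share their surroundings, and the intervals, which treat them as independent, cover the counting of regions only.

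For each marked IRF gene, the gene with the closest ranks was sought over the 4 lists, by the smallest largest difference. These were ITGB4 for IRF1 (within 1.15 points), STK4 for IRF2 (1.20), ODR4 for IRF3 (0.995), SPPL2A for IRF7 (3.15), KPNA3 for IRF9 (2.26) and NXPH3 for IRF5 (4.16). With 13634 and 14055 genes to choose from in the 2 marks, close matches are easily found.

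Among 12 kinases and adaptors that activate IRF3, IRF5 and IRF7, 12 had an H3K27ac region in either list, of which 4 fell and 1 rose, beside 36.8% and 16.8% of all genes, with a median change of -8.29 points against -4.55. By fragments 3 fell, beside 31% of all genes, and 0 rose, beside 699 of 13634 genes. The median by fragments was 0.40 against -4.45, so no direction is given for this list. Ranks of single genes in this and the following lists are by fold. The adaptor TICAM1 of Toll-like receptor signalling ranked 69.7 in siCONT and 37.7 in siDLEU1 cells, and the kinase TBK1, which phosphorylates IRF3, 88.6 and 68.5. The DNA-sensing adaptor STING1 had an H3K27ac region in siDLEU1 cells only (rank 17.7), and the kinase IKBKE ranked 61.8 and 71.2. H3K4me3 of the list fell at 1 and rose at 1 of 12 genes, beside 18.6% and 20.2% of all genes. The median change was -0.14 points against 0.51.

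Of 9 partners and co-regulators of IRFs, 7 had H3K27ac in either list. Of these, 3 fell and 2 rose, beside 36.8% and 16.8% of all genes (median -3.46 against -4.55). By fragments 4 fell, beside 31%, and 0 rose, beside 699 of 13634 genes (median -15.1 against -4.45). By fold, STAT2, which joins IRF9 in ISGF3, rose from 55.9 to 72.8. The corepressor IRF2BP2 fell from 85.1 to 54.9, the acetyltransferase EP300 rose from 59.7 to 72.8, and BATF3 was marked in siCONT cells only (rank 21.95). In H3K4me3, 6 had a region, and 1 fell and 1 rose, beside 18.6% and 20.2% of all genes (median 0.16 against 0.51). Of 8 negative regulators, 2 fell and 1 rose in H3K27ac, beside the same 36.8% and 16.8% (median 4.20 against -4.55). By fragments 2 fell, beside 31%, and 0 rose, beside 699 of 13634 genes (median -0.12 against -4.45). SOCS1 fell from 58.5 to 21.7 and SOCS3 from 95.2 to 63.0, both inhibitors of cytokine receptor kinases. RBCK1, a ubiquitin ligase subunit, rose from 82.6 to 99.8, and the phosphatase gene PTPN2 ranked 58.9 and 67.7. In H3K4me3, 2 fell and 3 rose, beside 18.6% and 20.2% of all genes (median 2.98 against 0.51).

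The 9 interferon genes examined, of types I, II and III, had no region of either mark at a TSS in any list, beside 53.3% to 56.7% of all genes with one. Of 16 genes known to be induced through IRFs, 14 had H3K27ac in either list, and 7 fell and 1 rose, beside 36.8% and 16.8% of all genes, with a median of -15.0 against -4.55. B2M, the light chain of class I molecules, fell from 95.7 to 57.0 and the GTPase gene GBP1 from 44.1 to 9.42. GBP2, CASP1 and RSAD2 had H3K27ac in siCONT cells only, at ranks of 24.5, 23.01 and 31.5. NLRC5, the activator of class I genes, rose by fold from 54.3 to 65.7, and IL7 ranked 56.9 and 65.2. H3K4me3 at NLRC5 ranked 65.1 and 70.2, but at IL7 60.8 and 15.0. In H3K4me3, 7 of 13 fell and 0 rose, beside 18.6% and 20.2% of all genes, with a median of -12.1 against 0.51. By fragments, 8 of 14 fell in H3K27ac, beside 31% of all genes, and 0 rose, beside 699 of 13634 genes (median -18.4 against -4.45). In H3K4me3, 8 of 13 fell by fragments, beside 13.2%, and 0 rose, beside 2199 of 14055 genes (median -13.6 against 0.52). The medians of the IRF genes themselves were 0.07 and 0.34 by fold and -14.1 and -2.51 by fragments, so in H3K27ac the distance between the lists depends on the scale. These lists were drawn up with earlier results of these data known, so the counts are a description.

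**Figure D5:**
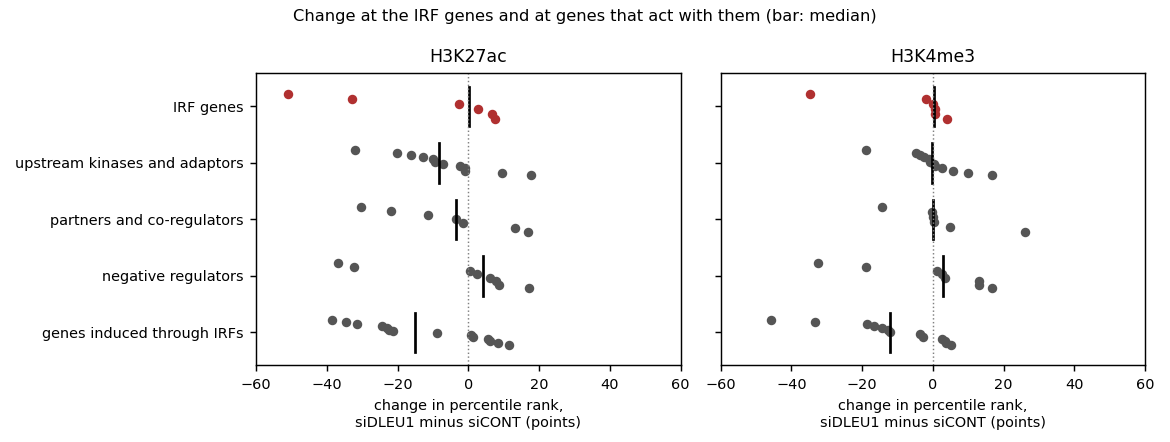
Change in percentile rank (siDLEU1 minus siCONT, in points) of single genes (points) in the IRF family (red) and in 4 lists of genes that act with it (grey), with the median of each list as a black bar; interferon genes, with no region, are not drawn. Genes induced through IRFs had medians of -15.0 in H3K27ac and -12.1 in H3K4me3, and the IRF genes 0.07 and 0.34; with ranks by fragments these were -18.4 and -13.6, and -14.1 and -2.51.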

How the data were processed

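H3K27ac and H3K4me3 were measured by ChIP-seq in HSC3 cells, in 4 libraries without replicates. The authors aligned Ion Proton reads to hg19 with bowtie2 and called regions in each library with MACS2, and HOMER was used for annotation; MACS2 settings and the control library are not given in the sources used here. The 2 inputs were not analysed here. The deposited lists give the fold ratio over local background and its −log10 p and −log10 q. The deposited score, a display value, was not used. The labels name the siRNA siDLEU1, and the methods name it siDLEU1-2.

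The 24135 genes were GENCODE genes (19140 protein-coding, 4995 lncRNA) on chromosomes 1 to 22 and X with a curated RefSeq transcript of the same symbol. Fold was ranked within lists, since lists were normalized separately. The number of fragments at each summit was solved from fold and p, so agreement with p is built in. In each list, 100% of regions gave a summit value close to a whole number of fragments. Reads rest on an assumed genome of 2.7 Gb. The functions were tested on simulated data. Intervals are 95% (Poisson for heights, conditional binomial for their ratios, Wilson for shares) and cover counting error only. Members, lists and alternatives were chosen with earlier results of these data known. All 8 members are named; in other lists, genes marked in 1 condition only and the 2 largest falls and rises in H3K27ac, with CD14 and CIITA named after their values were seen. 1 gene of the lists is not reported here. Python 3.11.15, numpy 2.4.6, pandas 2.3.3, scipy 1.17.1 and matplotlib 3.10.9 were used.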

Additional observations from a re-analysis of the deposited data

How the results depend on the processing

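The numbers of marked IRF genes stayed within 1.5 times of those given with a −log10 q of at least 10, windows of 3 and 5 kb, 1 TSS per gene, equal numbers of regions and at least 200 bp in the window. The numbers called, recomputed under these and other ranks after the data were seen, moved further in 4 cases. H3K27ac falls went from 2 to 4 with ranks by recovered fragments, and H3K27ac rises from 0 to 1 with equal numbers of regions. H3K4me3 falls went from 1 to 0 under the stricter q, where IRF5 has no region, and to 2 with 1 TSS per gene. The median change of the IRF genes in H3K27ac, 0.07 points, became -8.03 with ranks by −log10 p, -14.1 with ranks by recovered fragments, -6.21 with a −log10 q of at least 10, -2.51 with 1 TSS per gene and 1.53 with equal numbers of regions. In H3K4me3, 0.34 points became -0.98, -2.51, 1.58 and -0.73 under the first 4 of these, so neither median has a firm sign. The H3K4me3 width ratio at IRF1 reversed from 1.90 to 0.682 with summed widths. H3K27ac at IRF7 was lower under 8 of 8 alternatives, from -57.5 to -14.5 points. At IRF5 the change ran from -51.0 to -35.3 points. With no siDLEU1 region there, and so a rank of 0, its sign could only be negative. H3K27ac at IRF9 was higher under 5 of 8, from -29.4 to 13.2 points. At these 3 genes the 3 and 5 kb windows, 1 TSS per gene and the 200 bp rule returned the H3K27ac value given above. Those settings therefore add no separate check there. With the longest transcript as the only TSS, H3K4me3 at IRF1 changed by -40.8 points, since that start lies far upstream of the canonical one. Division of heights by fragment length, added after the data were seen, left the ratio at IRF9 at 0.414 in H3K27ac and 0.743 in H3K4me3. No paired analysis was possible because each siRNA and mark has a single library. Depth limits the calls at IRF5, IRF4 and IRF8 as given above, and variation between cultures was not measured.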
